A study of Homo sapiens with 4 samples.

Results

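The genes described here are those of the integrated stress response, with the regulators and targets of its transcription factor ATF4. They were chosen by symbol from a list of 42 genes, and all 42 were found among the 25343 gene symbols listed. The study measured RNA in Huh7 and PLC/PRF/5, human hepatocellular carcinoma cell lines, after knockdown of SCD1 (gene symbol SCD), an enzyme that turns saturated into monounsaturated fatty acids. There were 4 groups of 1 library each, named Huh7 control, Huh7 knockdown, PLC/PRF/5 control and PLC/PRF/5 knockdown. Both lines grew in DMEM-HG medium with FBS and PS. Knockdown cells carried 1 lentiviral short hairpin RNA against SCD1 (shSCD1#13). Control cells carried a non-target control (NTC) vector, so every group, controls included, held a lentiviral vector and had been selected with puromycin as a stably transduced population. No wild-type or rescue group is among these 4 libraries, and an effect of the hairpin outside SCD cannot be told apart from the loss of SCD.

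When the kinases PERK, GCN2, PKR or HRI phosphorylate the translation factor eIF2, protein synthesis slows while the mRNA of ATF4 is translated more efficiently. ATF4, with partners of the C/EBP family, then raises genes for amino acid synthesis, amino acid import and tRNA charging, and induces the factor CHOP and the phosphatase subunit that resets eIF2. In the liver this response is known from endoplasmic reticulum stress, amino acid shortage and mitochondrial stress. ATF4 is controlled largely at translation, so the level of its mRNA need not follow the level of its protein.

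Levels are in TPM, a transcript abundance scaled for length and to 1 common total per library, which keeps no record of sequencing depth. Pairs of levels are given as control then knockdown. SCD had 1755 then 137 TPM in Huh7 and 1111 then 178 TPM in PLC/PRF/5. Of 9 hepatocyte or hepatoma markers, the lowest in Huh7 was HNF4A, with 159.6 then 192 TPM, while in PLC/PRF/5 the transthyretin gene TTR had 0.41 then 0.16 TPM and the others ranged from 6.96 to 1780 TPM. The 7 leukocyte, endothelial and fibroblast markers were at 6.15 TPM or less in every library. Of the 42 genes, 41 reached 1 TPM in each Huh7 library and 40 in each PLC/PRF/5 library. The gene that did not reach it in any library was FGF21, a hepatic hormone, listed at 0.16 then 0 TPM in Huh7 and 0.14 then 0.42 TPM in PLC/PRF/5.

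The C/EBP-ATF response element, the sequence at which ATF4 and C/EBP proteins bind together, was searched as TGATGNAA on both strands of RefSeq promoters (build GRCh38.p14, 250 bases before to 50 after each annotated start). Of the 42 genes, 33 were matched to a promoter, and 14 of these (42.4%) held the motif in at least 1 promoter. Among all 27305 genes with a promoter of this length the share was 4.46%. The matched genes had 1.52 promoters each on average and all genes 1.29, so they offered more sequence to search per gene. By role, the motif was found in 4 of 6 amino acid transporter genes, 5 of 8 genes of tRNA charging and export, 2 of 6 transcription factor genes, 1 of 6 effector genes, 1 of 4 synthesis genes and 1 of 3 genes of secreted factors. A match is a run of letters and not a measured binding site. The windows below are shown because they hold nearly the same letters in genes whose knockdown differences lay high, near 0 and low. Capitals mark the motif or its reverse complement, and each run reads 5′ to 3′ on the strand of the gene.
ATF3, chr1:212565205-212565234, + strand: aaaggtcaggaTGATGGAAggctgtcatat
CHAC1, chr15:40953251-40953280, + strand: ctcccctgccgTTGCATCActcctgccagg
SLC3A2, chr11:62881725-62881748, + strand: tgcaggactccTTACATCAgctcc
CARS, chr11:3057407-3057436, - strand: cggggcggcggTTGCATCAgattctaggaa
CEBPG, chr19:33374060-33374089, + strand: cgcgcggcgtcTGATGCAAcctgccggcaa
ASNS, chr7:97872458-97872487, - strand: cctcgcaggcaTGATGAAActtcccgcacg
NARS, chr18:57621804-57621833, - strand: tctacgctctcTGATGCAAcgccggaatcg
IARS, chr9:92293692-92293721, - strand: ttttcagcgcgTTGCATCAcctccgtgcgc

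The match began 191 bases before the start of its promoter in ATF3, 209 before it in CHAC1, 42 in CEBPG, 68 in ASNS, 2 in CARS and 13 in IARS, and lay after the start in SLC3A2 and NARS. ATF3, CEBPG, ASNS and CARS had 2 annotated promoters each and SLC3A2 had 3, with the match in 1 of them. Which start these cells use was not tested. The 250 bases before the start of the matched promoter of CHAC1 and of ASNS are given in full. Both hold the motif upstream of that start, and the 2 genes had unlike differences in the knockdown libraries.
CHAC1, chr15:40953221-40953470, + strand: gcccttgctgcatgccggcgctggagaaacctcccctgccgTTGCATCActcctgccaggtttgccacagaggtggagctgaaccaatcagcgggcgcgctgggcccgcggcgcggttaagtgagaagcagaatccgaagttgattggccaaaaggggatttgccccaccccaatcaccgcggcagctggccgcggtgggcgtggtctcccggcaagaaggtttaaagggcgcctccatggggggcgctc
ASNS, chr7:97872409-97872658, - strand: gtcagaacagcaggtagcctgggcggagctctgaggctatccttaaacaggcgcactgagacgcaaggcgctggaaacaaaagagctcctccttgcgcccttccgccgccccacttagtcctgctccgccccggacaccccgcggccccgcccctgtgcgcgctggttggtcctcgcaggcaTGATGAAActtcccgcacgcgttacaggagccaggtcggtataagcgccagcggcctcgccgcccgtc

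Differences between the arms of a line are those of log2(TPM + 1), knockdown minus control, which makes the differences of genes at low levels look smaller than they are. Each compares 1 library with 1 library and has no replicate check. A gene was considered in a line when 1 of its libraries there reached 1 TPM, and a 2-fold difference on this scale was used as a rule of size, not as a test. The genes with the largest positive differences were mostly transcription factor and stress effector genes, while most genes of amino acid synthesis were lower. In Huh7, 5 of the 41 passed this size upward (ATF3, NUPR1, PPP1R15A, CHAC1 and GDF15), against 3.10% of all genes considered. None was at least 2-fold lower, against 1.54% of all genes. In PLC/PRF/5, 3 of 40 were at least 2-fold higher (ATF3, DDIT3 and PPP1R15A), against 1.72%, and 2 were at least 2-fold lower (NUPR1 and DDIT4), against 1.11%. ATF3 and PPP1R15A passed the size rule upward in both lines, which 0.431% of all genes did, and none passed it downward in both, against 0.216%. At 1.5-fold, CHAC1 and SESN2 joined them, making 4 of 40 against 2.24%, and DDIT4 was lower in both, against 1.14%. That looser rule took in 9 of 41 as higher (9.91% of all genes) and 2 as lower (4.86%) in Huh7, and 6 of 40 as higher (8.11%) and 3 as lower (4.02%) in PLC/PRF/5.

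By sign alone, 23 of the 40 genes with a value in each line lay above 0 in both (46.5% of all genes did), 9 lay below 0 in both (22.4%) and 8 had opposite signs (31.0%). The signs of small differences depend on how the libraries are scaled. When each library was rescaled by its median ratio to the others, the Huh7 median of all genes moved from 0.08 to -0.02 and the PLC/PRF/5 median from 0.10 to -0.03. Then 14 of 40 lay above 0 in both lines (30.02% of all genes), 18 below 0 in both (37.3%) and 8 had opposite signs (32.6%). As deposited, the stress response genes had a median of 0.11 in Huh7 (41 genes) and 0.06 in PLC/PRF/5 (40 genes), close to the medians of all genes. The values spread widely around these medians, from 1.63 for ATF3 to -0.90 for DDIT4 in Huh7, and the role groups are described in turn.

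**Figure D1:**
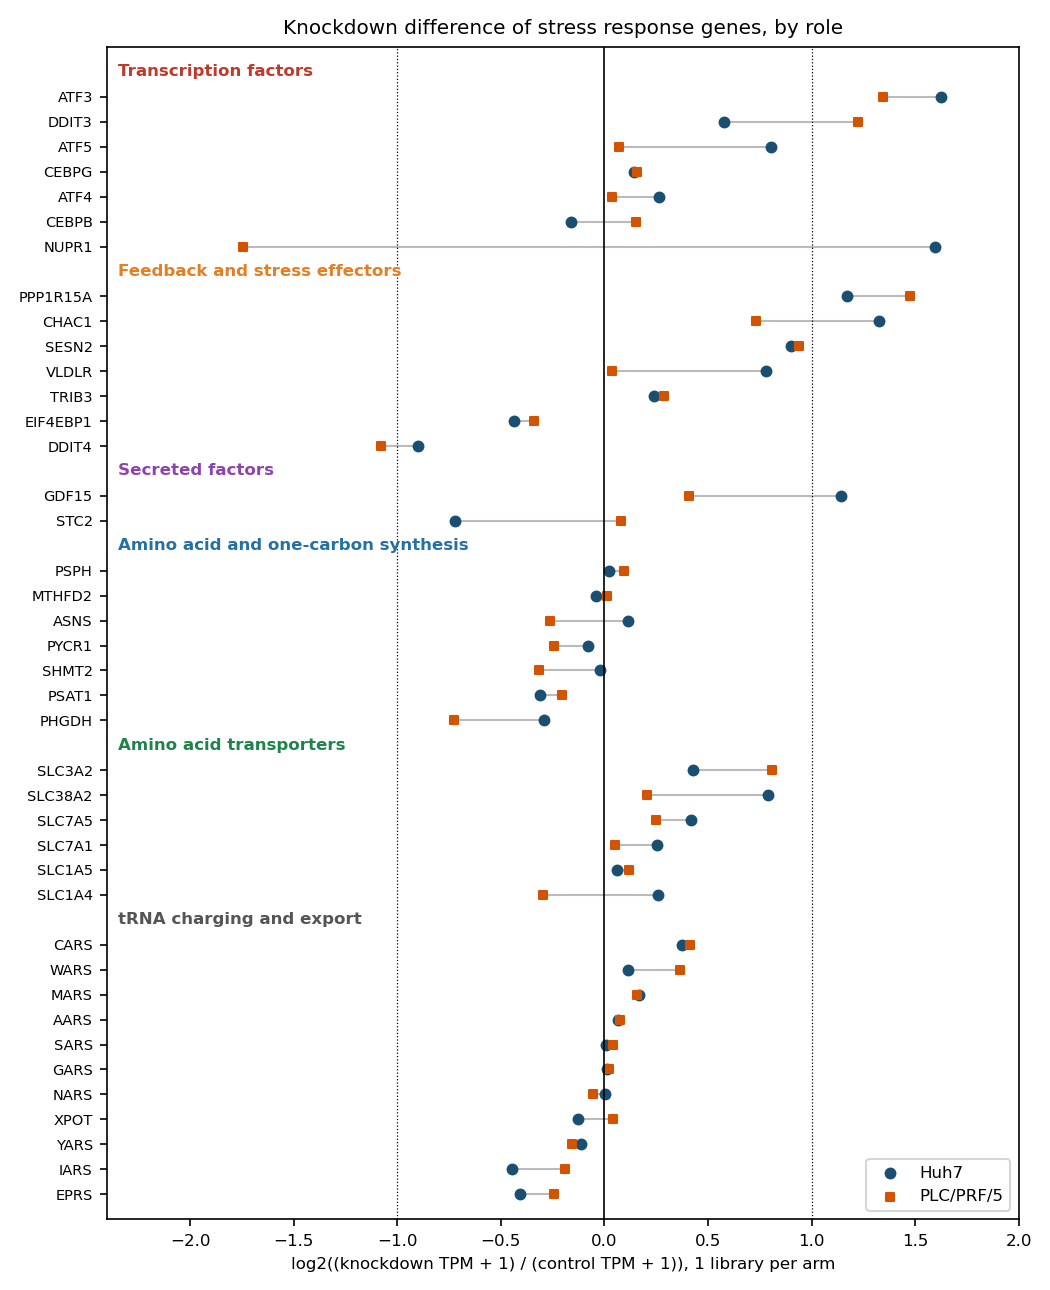
Knockdown difference on the log2(TPM + 1) scale (x axis) of the 40 genes considered in both lines, by role; circles are Huh7, squares PLC/PRF/5, each from 1 library per arm, and dotted lines mark 2-fold. ATF3 and PPP1R15A lie beyond 2-fold in both lines, NUPR1 lies at 1.60 in Huh7 and at -1.75 in PLC/PRF/5, and most synthesis genes lie at or below 0.

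The knockdown difference common to both lines was tested across 13813 genes with limma, on the same scale and with the cell line as a block. The fit had 1 residual degree of freedom, beside 3.71 prior degrees of freedom from the variance trend over all genes. Its p-values thus set a difference against a variance taken mostly from other genes and partly from how alike the lines moved. They do not measure the spread between replicate cultures, since nothing in the labels describes separate cultures of a group. None of the 41 genes in the fit passed at an adjusted p of 0.05 in either direction, where 0% of all genes passed as higher and 0.00724% as lower. The smallest adjusted p among them was 0.129. SCD, the targeted gene, did not pass either, with a mean difference of -3.15. A gene that does not pass here is therefore not shown to be unchanged. At an unadjusted p under 0.05, limma placed 11 of 41 higher, against 12.7% of all genes, and 6 lower, against 5.24%. These counts were 8 and 8 with median-ratio scaling, 7 and 2 with no filter on low genes, 8 and 3 without the variance trend, and 2 and 0 without the cell line term. The 11 were ATF3, DDIT3, TRIB3, PPP1R15A, CHAC1, SESN2, GDF15, SLC7A5, SLC3A2, SLC38A2 and CARS. The 6 were DDIT4, EIF4EBP1, PSAT1, PHGDH, EPRS and IARS.

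Among the 7 transcription factor genes, ATF3 and DDIT3 were higher in the knockdown library of both lines, ATF4 itself differed little, and NUPR1 went opposite ways. ATF3, a stress-induced repressor and activator of the same bZIP family, had 6.91 then 23.4 TPM in Huh7 and 14.0 then 37.2 TPM in PLC/PRF/5. Both knockdown libraries lay above both control libraries. The share of all genes with this order of libraries was not computed, here or where the order is named again below. In limma its mean difference was 1.49 ± 0.15 (SE over the fit of both lines, adjusted p = 0.129). In bulk RNA, more cells with the transcript and more transcript per cell cannot be told apart.

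DDIT3, which encodes CHOP, the factor linked to cell death in prolonged stress, had 19.7 then 29.9 TPM in Huh7 and 43.8 then 104 TPM in PLC/PRF/5. The PLC/PRF/5 control lay above both Huh7 libraries, so the order follows the arm only within a line. The mean difference was 0.90 ± 0.18 (limma SE, adjusted p = 0.175). Exons of DDIT3 overlap those of MARS and MBD6 on the opposite strand, and the strand setting of the counting is not given in the sources used here, so reads of these genes may not be fully separated. MARS had differences of 0.17 and 0.16.

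ATF4 had 625 then 750.5 TPM in Huh7 and 906 then 928 TPM in PLC/PRF/5. It ranked within the top 0.848% of the listed genes in every library. Its differences were 0.26 and 0.04, and the PLC/PRF/5 value became -0.11 with median-ratio scaling. The level of DDIT3 relative to ATF4, as a ratio of TPM within a library, was 0.0315 in the Huh7 control and 0.0398 in the knockdown, and 0.0483 and 0.112 in PLC/PRF/5.

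NUPR1, a small stress-induced chromatin protein, had 3.36 then 12.2 TPM in Huh7 and 132 then 38.7 TPM in PLC/PRF/5. It was 3.63-fold higher in the Huh7 knockdown and 3.42-fold lower in the PLC/PRF/5 knockdown as a ratio of TPM. Both PLC/PRF/5 libraries remained above both Huh7 libraries. ATF5, a relative of ATF4 also active in mitochondrial stress, had differences of 0.80 in Huh7 and 0.07 in PLC/PRF/5, the latter -0.07 with median-ratio scaling. The partner genes CEBPG (0.14 and 0.16) and CEBPB (-0.16 and 0.15) differed little. The group's median was 0.58 in Huh7 and 0.15 in PLC/PRF/5. Higher in both lines were 5 of 7, against 46.5% of all genes, or 3 of 7 with median-ratio scaling, against 30.02%.

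**Figure D2:**
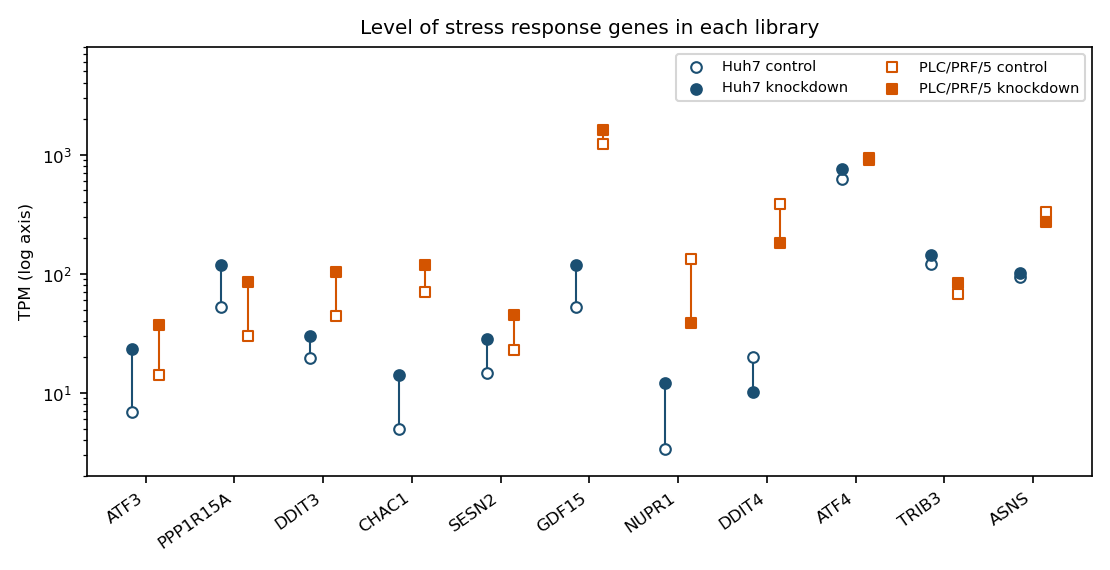
Level of 11 stress response genes in each of the 4 libraries, in TPM on a log axis; open symbols are controls, filled symbols knockdowns, circles Huh7 and squares PLC/PRF/5. The filled symbol lies above the open one in both lines for ATF3, PPP1R15A, DDIT3, CHAC1, SESN2, GDF15, ATF4 and TRIB3 and below it in both for DDIT4, and the lines differ most in level for NUPR1, DDIT4, GDF15 and CHAC1.

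Of the 7 feedback and stress effector genes, PPP1R15A, CHAC1 and SESN2 were higher in both lines by 1.5-fold or more, whereas DDIT4 was lower in both. PPP1R15A encodes GADD34, the inducible subunit of the phosphatase that acts on eIF2. It had 52.3 then 119 TPM in Huh7 and 29.8 then 84.6 TPM in PLC/PRF/5. Both knockdown libraries exceeded both controls, and the mean difference was 1.32 ± 0.12 (limma SE, adjusted p = 0.129). Its constitutive counterpart PPP1R15B had differences of 0.03 and -0.04. The ratio of PPP1R15A to PPP1R15B was 1.08 in the Huh7 control and 2.40 in the knockdown, and 0.446 and 1.31 in PLC/PRF/5.

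CHAC1, an enzyme that degrades glutathione, had 5.00 then 14.0 TPM in Huh7 and 70.5 then 118 TPM in PLC/PRF/5. The lines did not overlap in its level, and the mean knockdown difference was 1.03 ± 0.18 (limma SE, adjusted p = 0.158). SESN2, a leucine sensor that restrains mTORC1, had 14.6 then 28.0 TPM in Huh7 and 22.9 then 44.7 TPM in PLC/PRF/5. Both knockdown libraries exceeded both controls, and the differences of SESN2, 0.90 and 0.94, were nearly the same. That order of libraries also held for CEBPG and VLDLR, though both differed little in PLC/PRF/5, and PSAT1 and IARS had the reverse order. The share of all genes ordered so was not computed. A looser condition, a higher value in both lines, was met by 46.5% of all genes, and a lower value in both by 22.4%.

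DDIT4 encodes REDD1, another inhibitor of mTORC1 and a target of hypoxia and glucocorticoid signals as well as of ATF4. It had 20.01 then 10.2 TPM in Huh7 and 383 then 181 TPM in PLC/PRF/5. Each knockdown library lay below the control of its line, with a mean difference of -0.99 ± 0.10 (limma SE, adjusted p = 0.129). EIF4EBP1, which encodes the translation repressor 4E-BP1, was lower in both lines as well (-0.43 and -0.34). The mTORC1 and translation brakes among these genes thus had unlike signs, SESN2 being higher and DDIT4 and EIF4EBP1 lower.

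TRIB3, a pseudokinase that feeds back on ATF4 and CHOP, had 121 then 143 TPM in Huh7 and 68.0 then 83.4 TPM in PLC/PRF/5. Both Huh7 libraries lay above both PLC/PRF/5 libraries, and the mean knockdown difference was 0.26 ± 0.09 (limma SE, adjusted p = 0.244). VLDLR, a lipoprotein receptor induced by ATF4 in stressed hepatocytes, had 5.80 then 10.7 TPM in Huh7 and 9.22 then 9.47 TPM in PLC/PRF/5, where its difference of 0.03 became -0.10 with median-ratio scaling. The group's median was 0.78 in Huh7 and 0.29 in PLC/PRF/5. Higher in both lines were 5 of 7, against 46.5% of all genes, or 4 with median-ratio scaling, against 30.02%. Lower in both were 2 under either scaling, against 22.4% as deposited and 37.3% with median-ratio scaling.

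Secreted factors were not alike. GDF15, a hormone that signals cell stress to the brain, had 52.5 then 117 TPM in Huh7 and 1221 then 1622 TPM in PLC/PRF/5. Its level did not overlap between the lines, and the knockdown library was the higher in each. The differences were 1.14 and 0.41, with a mean of 0.78 ± 0.19 (limma SE, adjusted p = 0.189). STC2, a secreted glycoprotein induced by ATF4, had differences of -0.72 and 0.08, the latter -0.06 with median-ratio scaling. FGF21 was below the level considered in both lines and entered no count of knockdown differences.

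Most amino acid and one-carbon synthesis genes were lower or near 0. Of 7 genes with a value in each line, 4 lay below 0 in both, against 22.4% of all genes. Above 0 in both was 1, against 46.5%, and 2 were opposite, against 31.0%. With median-ratio scaling 6 were lower in both, against 37.3% of all genes. The median was -0.06 in Huh7 and -0.24 in PLC/PRF/5. PHGDH, the first enzyme of serine synthesis, had 297 then 243 TPM in Huh7 and 223 then 134 TPM in PLC/PRF/5, with a mean difference of -0.51 ± 0.13 (limma SE, adjusted p = 0.197). The next enzyme, PSAT1, had differences of -0.31 and -0.21, and the last, PSPH, of 0.02 and 0.09, which became -0.08 and -0.05 with median-ratio scaling. Serine synthesis was not uniform along the pathway: its first and second steps lay below 0 in both lines and its last step near 0.

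Mitochondrial one-carbon genes, which use serine for folate metabolism, differed little in Huh7. SHMT2, which splits serine into glycine and a folate-bound carbon, had values of -0.02 and -0.32. MTHFD2, the folate dehydrogenase that follows it, had -0.04 and 0.01. ALDH1L2, which releases the carbon as carbon dioxide, had 4.43 then 3.85 TPM in Huh7 and under 1 TPM in PLC/PRF/5. PYCR1, the enzyme of the last step of proline synthesis, had values of -0.08 and -0.24.

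ASNS, the asparagine synthetase and a widely used ATF4 reporter gene, had 93.0 then 101 TPM in Huh7 and 327 then 273 TPM in PLC/PRF/5. Its signs were opposite, at 0.11 and -0.26, and the mean difference was -0.08 ± 0.12 (limma SE, adjusted p = 0.756). Of the 31-base words of the longest ASNS transcript in GENCODE 29, 83.0% also occur in a clone-named gene model that is not among the listed symbols. The share of words found in other genes was 37.5% for ATF4, part of it in ATF4P3, and 22.9% for XPOT. With the listed genes alone it was 0% for ASNS and ATF4 and 1.79% for XPOT. The levels of these 3 genes may be less certain, but the annotation used is not given and an effect was not tested. The summed level of the 8 synthesis genes was 1473 then 1340.2 TPM in Huh7 and 1879 then 1589 TPM in PLC/PRF/5.

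Amino acid transporter genes stood higher in both lines in 5 of 6, against 46.5% of all genes. With median-ratio scaling 3 of 6 did (SLC3A2, SLC7A5 and SLC38A2), against 30.02%. The median was 0.34 in Huh7 and 0.16 in PLC/PRF/5, the latter 0.02 with that scaling. SLC3A2, the heavy chain shared by several heterodimeric transporters, had 236 then 317 TPM in Huh7 and 262 then 461 TPM in PLC/PRF/5. Both knockdown libraries lay above both controls, and the mean difference was 0.62 ± 0.12 (limma SE, adjusted p = 0.166). SLC7A5, its light chain in the leucine transporter LAT1, had smaller differences of 0.42 and 0.25.

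The light chain gene SLC7A11, which pairs with SLC3A2 in the cystine transporter xCT and is no part of the 42, was lower in both lines (-1.12 and -0.27). The ratio of SLC3A2 to SLC7A11 was 9.69 in the Huh7 control and 29.7 in the knockdown, and 9.51 and 20.3 in PLC/PRF/5. SLC38A2, the glutamine and neutral amino acid carrier SNAT2, had 358 then 620.4 TPM in Huh7 and 642 then 742 TPM in PLC/PRF/5. Its differences were 0.79 and 0.21. The arginine and lysine carrier SLC7A1 (0.25 and 0.05), the glutamine carrier SLC1A5 (0.06 and 0.12) and the neutral amino acid carrier SLC1A4 (0.26 and -0.30) differed less. With median-ratio scaling SLC1A5 was below 0 in both lines and SLC7A1 in PLC/PRF/5.

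The 11 genes of tRNA charging and export were centred near 0, with a median of 0.01 for Huh7 and 0.04 for PLC/PRF/5. These enzymes join amino acids to their tRNAs, and XPOT carries tRNAs out of the nucleus. Higher in both lines were 6 of 11, where 46.5% of all genes were, and lower in both were 3, where 22.4% were. With median-ratio scaling 3 were higher in both, against 30.02% of all genes, and 8 lower in both, against 37.3%. CARS, the cysteinyl-tRNA synthetase gene, was highest in both lines, with 36.7 then 47.9 TPM in Huh7 and 104 then 139 TPM in PLC/PRF/5. WARS for tryptophan (0.12 and 0.37) and MARS for methionine (0.17 and 0.16) followed. EPRS (-0.41 and -0.24) and IARS (-0.44 and -0.19), whose products belong with MARS to the multisynthetase complex, were the lowest, and YARS for tyrosine was lower in both (-0.11 and -0.16).

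The genes for alanine, AARS (0.07 in both lines), glycine, GARS (0.01 and 0.02), serine, SARS (0.01 and 0.04), and asparagine, NARS (0.00 and -0.06), lay near 0 as deposited, and XPOT had values of -0.13 and 0.04. The summed level of the 11 genes was 1731 then 1656 TPM in Huh7 and 2668 then 2711 TPM in PLC/PRF/5. The motif shown above was present in CARS, the highest of the group, and in IARS, the lowest in Huh7. Over all roles, the 13 genes with the motif and with a value in each line had Huh7 and PLC/PRF/5 medians of 0.17 and 0.12, and the 19 without it in the promoters searched had 0.24 and 0.08.

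**Figure D3:**
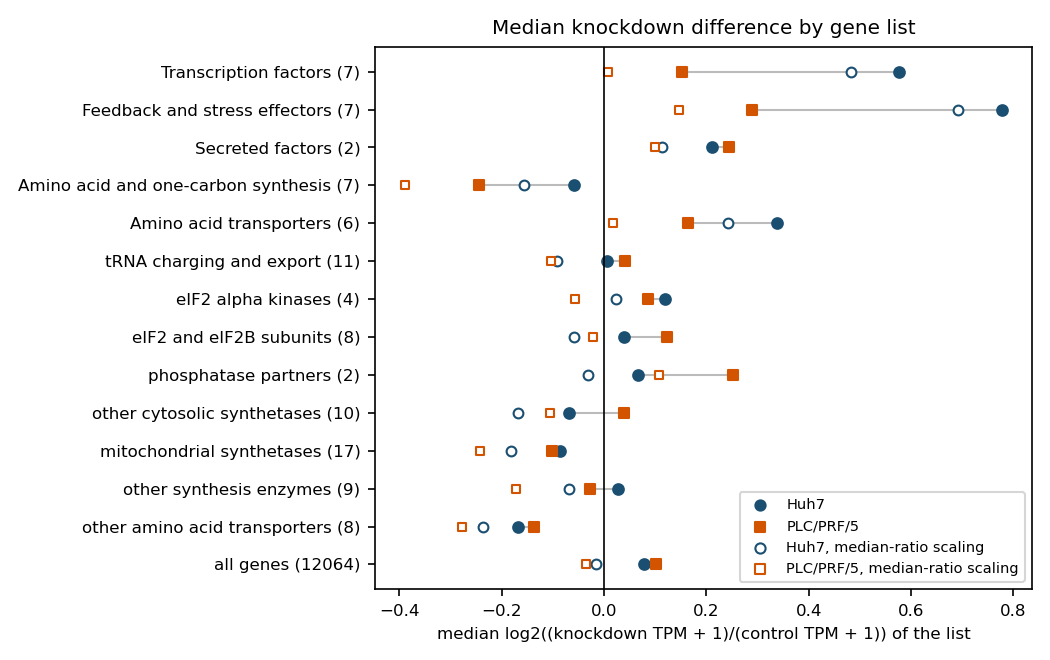
Median knockdown difference on the log2(TPM + 1) scale (x axis) of the 6 role groups, 7 lists of related genes and all genes, each over the genes considered in that line, with the number considered in both lines in brackets; circles are Huh7, squares PLC/PRF/5, and open symbols the values after median-ratio scaling. Transcription factors and effectors lie farthest to the right in Huh7 (0.58 and 0.78), and the synthesis group farthest to the left in PLC/PRF/5 (-0.24).

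Other genes of the pathway were taken from 7 further lists of 60 genes. None passed in limma at an adjusted p of 0.05, and at an unadjusted p under 0.05 there were 1 higher, against 12.7% of all genes, and 6 lower, against 5.24%. The 1 higher gene was EIF2AK3, which encodes PERK, the kinase that senses endoplasmic reticulum stress. It had 24.2 then 30.5 TPM in Huh7 and 21.2 then 35.4 TPM in PLC/PRF/5, while the amino acid sensing kinase GCN2 (EIF2AK4) had differences of 0.27 and 0.21 and PKR (EIF2AK2) of -0.25 and -0.04. The 8 genes of the eIF2 and eIF2B subunits differed little, with medians of 0.04 and 0.12, and EIF2S1, the subunit that is phosphorylated, had values of 0.19 and 0.17. DNAJC3, which inhibits the eIF2 kinases, had values of 0.10 and 0.54.

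Among 17 mitochondrial synthetase genes, 9 were lower in both lines, where 22.4% of all genes were, and 4 higher in both, where 46.5% were. With median-ratio scaling 12 were lower in both, against 37.3% of all genes, and 1 higher in both, against 30.02%. YARS2, which charges mitochondrial tyrosine tRNA, had 27.9 then 14.1 TPM in Huh7 and 44.6 then 27.8 TPM in PLC/PRF/5. LARS2, its counterpart for leucine, had 37.4 then 21.4 TPM in Huh7 and 23.3 then 13.4 TPM in PLC/PRF/5. These 2 genes passed the unadjusted threshold as lower, and TARS2 had values of -0.04 and -0.51. The 10 other cytosolic synthetase genes had medians of -0.07 and 0.04, with HARS at 0.12 and 0.26, VARS at -0.18 and -0.14 and FARSB at -0.46 and 0.13.

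CBS, the enzyme that joins serine and homocysteine, had 168 then 111 TPM in Huh7 and 368 then 214 TPM in PLC/PRF/5, lower in both. ALDH18A1, the enzyme of the first steps of proline synthesis from glutamate, had values of -0.47 and -0.14, and ALDH1L1 of -1.05 in Huh7, with under 1 TPM in PLC/PRF/5. Of the other transporters, the arginine carrier SLC7A2 had 114 then 73.5 TPM in Huh7 and 34.0 then 13.1 TPM in PLC/PRF/5, and SLC7A6, a relative that pairs with SLC3A2, had values of 0.63 and 0.08. Lower values thus also occurred among genes of serine use, proline synthesis and amino acid import outside the 42.

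**Figure D4:**
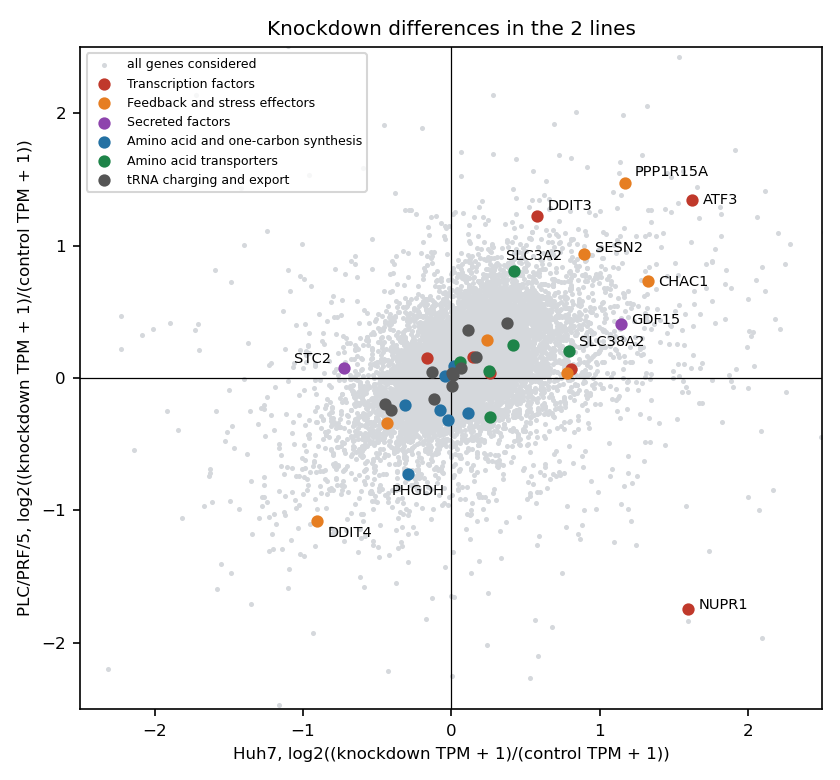
Knockdown difference in Huh7 (x axis) against that in PLC/PRF/5 (y axis), both on the log2(TPM + 1) scale, for the 40 stress response genes considered in both lines, coloured by role, over all 12064 genes considered in both (grey; 22 lie outside the axes). PPP1R15A, ATF3, SESN2 and CHAC1 lie at the upper right, DDIT4 at the lower left and NUPR1 at the lower right.

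The genes stood higher in PLC/PRF/5 than in Huh7. In the control libraries 32 of 40 had a higher TPM in PLC/PRF/5, as did 52.8% of all 12064 genes considered in both lines, and in the knockdown libraries 34 of 40 did, against 55.2%. The line coefficient of the limma fit, in which the arms stand in for replicates, placed 26 of 41 higher in PLC/PRF/5 at an adjusted p of 0.05, against 31.5% of all genes, and 6 higher in Huh7, against 28.3%. These p-values too rest on the shared variance and the agreement of 2 arms, not on replicate cultures. All 32 calls were lost when no filter on low genes was applied.

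GDF15 had 23.3 times the TPM in the PLC/PRF/5 control that it had in the Huh7 control, DDIT4 19.1 times, CHAC1 14.1 times and NUPR1 39.3 times. In the knockdown libraries the ratios were 13.8, 17.7, 8.39 and 3.17. The 6 genes higher in Huh7 were TRIB3, PPP1R15A, PHGDH, PSPH, SHMT2 and ALDH1L2, of which 4 belong to the synthesis group. ALDH1L2 entered the fit only through its Huh7 libraries, so its call follows from the filter. ASNS and MTHFD2, of the same group, were higher in PLC/PRF/5, with control ratios of 3.52 and 2.58. For the synthetases GARS, CARS, SARS, WARS and NARS the control ratios ranged from 2.02 to 2.85. The other synthetases had lower ratios: EPRS 1.47, MARS 1.395, YARS 1.21, AARS 1.12 and IARS 0.94. The line difference was 4.10 on the log2 scale for DDIT4, with a standard error of 0.10 in limma (adjusted p = 1.5e-04), against a knockdown difference of -0.99 for the same gene.

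**Figure D5:**
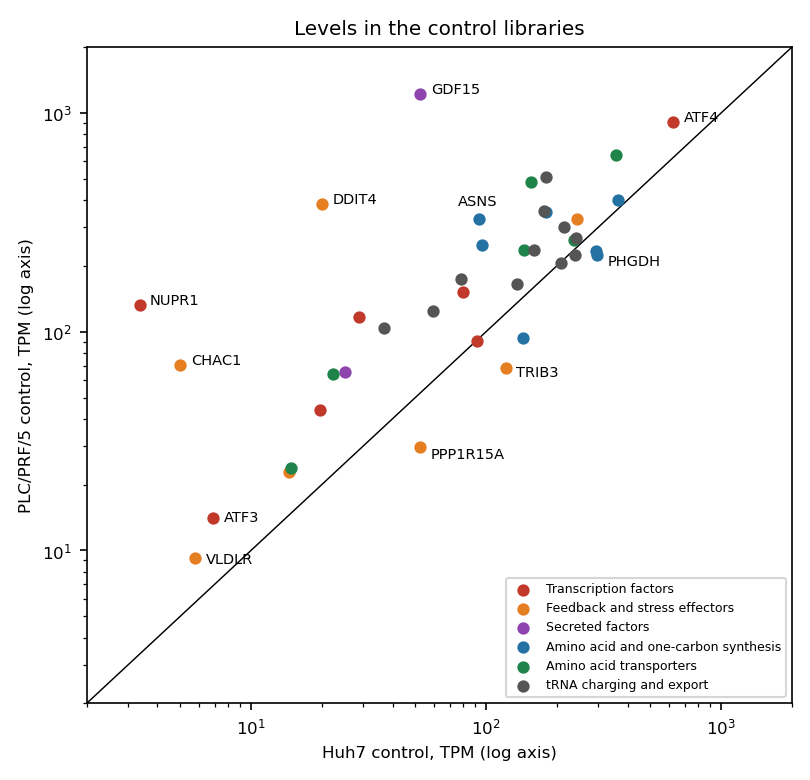
Level in the Huh7 control (x axis) and the PLC/PRF/5 control (y axis), in TPM on log axes, of the 40 genes considered in both lines, coloured by role; the line marks equal levels. Above it lie 32 genes, with GDF15, DDIT4, NUPR1 and CHAC1 farthest from it, and TRIB3 and PPP1R15A are among the 8 below it.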

How the data were processed

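Total RNA (TRIzol) went into Illumina libraries, per the labels' protocols, and the authors deposited 1 gene table for each of the 4 groups, which were assigned from the sample titles. Per the file headers the deposited values are TPM, with 2 decimals and the same total in each library. Reads were trimmed and quantified with cutadapt and RSEM 1.2.21 on hg19, as far as the submitters' processing notes name tools. Aligner, annotation and strandedness: not given in the sources used here. TPM keeps no depth, so no counting interval or detection limit was computed, and a large change in abundant transcripts moves every other value.

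The 42 genes, their 6 role groups, the 7 further lists and the rule for named genes were chosen with earlier results of these data known. By that rule all 42 may be named, with up to 3 genes per further list by size of the mean difference and SCD; SLC7A11 and PPP1R15B fall under it too. Differences were computed on log2(TPM + 1) with Python 3.11.15. The across-line fit used limma 3.58.1 in R 4.3.3, with genes at 1 TPM or more in at least 2 libraries, an empirical Bayes trend in the variance (1 residual and 3.71 prior degrees of freedom), two-sided tests and Benjamini-Hochberg adjustment over all genes. It was first run on simulated data with the same knockdown effect in both lines, which does not check genes whose lines moved differently. Alternatives were pseudocounts of 0.1 and 5, a minimum of 5 TPM or none, median-ratio scaling, no variance trend, no cell line or arm term, and a 1.5-fold size rule. Promoters came from RefSeq (GRCh38.p14), where 33 of 42 symbols matched, directly or through synonyms. Shared words and overlapping exons were read from GENCODE 29, which is on another build than the files and was used for no position.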

Additional observations from a re-analysis of the deposited data

Results flagged for a closer look

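For 8 of the 40 genes considered in both lines, the knockdown library was above the control in 1 line and below it in the other. Of all genes considered in both lines, 31.0% had such opposite signs, so the count lies below that share. Each arm of a line is 1 library, so this contrast between the lines was not tested. NUPR1 had the widest gap: its difference in PLC/PRF/5 minus that in Huh7 was -3.34 on the log2 scale, from 1.60 in Huh7 and -1.75 in PLC/PRF/5. STC2 had a gap of 0.80, SLC1A4 of -0.56, ASNS of -0.38 and CEBPB of 0.31. The gaps of XPOT (0.17), NARS (-0.060) and MTHFD2 (0.052) came from differences close to 0 in both lines. With median-ratio scaling STC2, MTHFD2, NARS and XPOT were below 0 in both lines, while NUPR1, ASNS, SLC1A4 and CEBPB kept opposite signs.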

How the results depend on the processing

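None of the 41 genes in the fit (40 at a minimum of 5 TPM) passed the across-line limma test under any alternative run, with adjusted p from 0.0965 to 1. With median-ratio scaling the mean difference changed sign for PSPH (-0.065), ALDH1L2 (-0.042), SLC1A5 (-0.032), AARS (-0.052), GARS (-0.10) and SARS (-0.0985), none of which had passed. ALDH1L2 was at -0.020 with a pseudocount of 5 and NUPR1 at 0.029 with one of 0.1. The same scaling moved the genes higher in both lines to 14 and those lower in both to 18. It moved the median of the stress response genes considered to 0.015 in Huh7 (41 genes) and -0.083 in PLC/PRF/5 (40 genes). It moved the medians of the tRNA group to -0.093 and -0.10 and of the secreted factors to 0.11 and 0.10, and in PLC/PRF/5 those of the synthesis group to -0.39 and of the transporters to 0.018. For the 2 secreted factors the Huh7 median was 0.24 with a pseudocount of 5, and without a filter, which adds FGF21, the medians were -0.21 and 0.32. A 1.5-fold rule gave 9 higher and 2 lower in Huh7, 6 higher in PLC/PRF/5, and 4 higher and 1 lower in both lines. For the line difference, no filter left 0 calls in each direction, and IARS changed sign with median-ratio scaling (-0.0047); the cause was not tested. Counts by role and at an unadjusted p also moved, as given beside them. The fit pairs the arms by cell line, with that line as its block, and without the block the adjusted p was 1 for each of the 41 genes. Depth is unknown, so FGF21 and ALDH1L2 in PLC/PRF/5 give no usable difference.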
